A study of Mus musculus with 24 samples.

Results

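The noncoding RNA probes described here are the array probes whose transcript name in the scanner files is a RefSeq accession starting with NR_, the prefix RefSeq gives to transcripts that code for no protein. Of 56605 probes that were not controls, 2477 carried such a name. Members were chosen by measured levels: a probe was a member where the scanner software called its spots well above background on both arrays of at least 1 of the 12 groups, which left 1195 members among the 38115 probes of any kind that met the same rule. The levels that chose the members are therefore a description and were not tested. The members stood for 1133 transcripts, and 1144 members had 1 of 1066 gene symbols in the RefSeq gene table. The other 51 members are given by accession alone.

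The samples were cerebella of C57BL/6 mice at postnatal day 28, each hybridised to 1 single-colour array (24 arrays, n = 2 per group). Both Derlins sit in the membrane of the endoplasmic reticulum (ER), where misfolded proteins are drawn out for degradation. The design asks how transcripts change when either is deleted in the nervous system, and how 4-phenylbutyrate (4PBA), a chemical chaperone, changes them. The knockouts (KO) were Derl1 flox/flox or Derl2 flox/flox mice with Cre recombinase under the nestin promoter, which is active in neural precursors, so that neurons and most glia are targeted and microglia and vessels are not. All controls were Derl1 flox/flox or Derl2 flox/flox mice, and no group carried Cre without floxed alleles. A numbered Derlin-1 series (replicates 1 and 2) and the Derlin-2 line (replicates 1 and 2) each had a control and a KO group given water as vehicle, and a control and a KO group given 200 mg/kg 4PBA, all injected into the abdomen daily from day 14 to day 28. A lettered Derlin-1 series (replicates a and b) had the same 4PBA groups, and its control and KO groups without 4PBA name no vehicle, so they are called untreated. "Without 4PBA" covers both the vehicle and the untreated arrays. The labels do not say whether an array held 1 animal or a pool, or whether replicates were separate animals, so p-values measure only the spread between these samples, which may be technical.

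Each series lay on its own slide, and the lettered slide was scanned on another day, so a Derlin-1 effect was taken within each slide and averaged over both. Within a slide, position and group cannot be told apart. Values below are log2 intensities minus the array's 75th percentile, called levels. The share of spots well above background ranged from 57.7% to 68.4% over the arrays. On the Derlin-2 slide the brighter Derl2 probe had levels of 1.96 to 2.14 on the 4 control arrays and 0.73, 0.80 and 1.08 on 3 KO arrays, but 2.30 on KO vehicle 1, where Derl2 was thus not lowered. The second Derl2 probe was at 0.19 on that array, 0.01 to 0.15 on the controls and -1.84 to -1.37 on the other KO arrays. Derl3 was at -1.26 on it, -2.47 to -2.15 on the controls, -0.01 on KO vehicle 2 and -1.38 and -1.40 on the KO 4PBA arrays. The mean of the ER stress markers named next was 0.42 on it, 0.05 to 0.27 on the controls and 0.63 to 0.91 on the other KO arrays. KO vehicle 1 thus read like the controls at both Derl2 probes, like the KO 4PBA arrays at Derl3 and between the groups at the stress markers. The Derl1 probe did not separate Derlin-1 groups without 4PBA (1.40 to 1.78 on control arrays, 0.68 to 1.48 on KO arrays), and whether it lies in the deleted part is not given in the sources used here. The mean level of 10 ER stress marker genes was 0.35 to 0.58 on Derlin-1 control arrays without 4PBA and 2.26 to 2.93 on KO arrays. With 4PBA it was 2.40 to 2.52 on 3 Derlin-1 KO arrays and 0.34 on the array labelled lettered Derlin-1 KO 4PBA b, against 0.32 to 0.59 on the controls. Values without these arrays, labelled Derlin-2 KO vehicle 1 and lettered Derlin-1 KO 4PBA b, stand beside the results that rest on them. Each of the defining markers of granule neurons, Purkinje cells and astrocytes was well above background on some array of the series. This does not show that each was so in every group.

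Long noncoding RNAs are transcribed and spliced like messenger RNAs, and are known in the brain as nuclear scaffolds, regulators of neighbouring or imprinted genes, and precursors of small RNAs. Host transcripts of small nucleolar RNAs (snoRNAs) carry in their introns the guide RNAs that direct modification of ribosomal RNA, while the spliced exons, often with short open reading frames, are usually removed by nonsense-mediated decay when translated. Many of these hosts start at a pyrimidine-rich initiator (a terminal oligopyrimidine tract), a feature they share with ribosomal protein genes.

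The promoters of 9 members that passed the test in Derlin-1 KO cerebellum, described below, are shown first: 7 that rose and 2 that fell. Each run holds 100 bases before and 50 bases after the RefSeq transcript start in GRCm38.p6, read 5′ to 3′ on the transcript's strand from RefSeq. Capitals mark a match to a motif of a fixed list, or a pyrimidine run at the start, which was looked for after the sequences had been seen. The 5 members below are 4 snoRNA hosts that were higher in KO, Snhg1 (chr19:8723387-8723536, plus strand), Snhg5 (chr9:88522848-88522997, minus strand), Snhg12 (chr4:132308578-132308727, plus strand) and Snhg16 (chr11:116671560-116671709, plus strand), and 2410006H16Rik (chr11:62602777-62602926, plus strand), which rose with them.
Snhg1: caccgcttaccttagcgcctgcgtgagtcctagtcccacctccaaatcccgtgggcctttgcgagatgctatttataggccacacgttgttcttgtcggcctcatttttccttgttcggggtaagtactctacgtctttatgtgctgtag
Snhg5: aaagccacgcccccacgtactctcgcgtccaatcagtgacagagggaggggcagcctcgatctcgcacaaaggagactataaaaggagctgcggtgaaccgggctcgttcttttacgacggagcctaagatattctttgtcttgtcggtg
Snhg12: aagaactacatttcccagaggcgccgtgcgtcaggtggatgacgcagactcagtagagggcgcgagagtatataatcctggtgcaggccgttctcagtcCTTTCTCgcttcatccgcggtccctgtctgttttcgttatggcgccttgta
Snhg16: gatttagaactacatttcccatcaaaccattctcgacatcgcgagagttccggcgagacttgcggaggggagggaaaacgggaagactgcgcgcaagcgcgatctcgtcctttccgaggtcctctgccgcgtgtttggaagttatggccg
2410006H16Rik: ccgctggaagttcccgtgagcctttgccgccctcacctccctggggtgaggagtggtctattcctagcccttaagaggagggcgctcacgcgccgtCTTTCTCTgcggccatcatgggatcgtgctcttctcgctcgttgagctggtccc
The other 4 are 9330179D12Rik (chr6:127149289-127149438, plus strand) and C530044C16Rik (chr6:50776015-50776164, plus strand), both higher in KO, and A230028O05Rik (chr16:25059539-25059688, plus strand) and Gm15179 (chr1:75374966-75375115, minus strand), both lower in KO.
9330179D12Rik: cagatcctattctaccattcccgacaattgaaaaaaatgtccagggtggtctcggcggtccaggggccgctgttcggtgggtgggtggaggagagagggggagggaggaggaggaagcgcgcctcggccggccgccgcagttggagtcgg
C530044C16Rik: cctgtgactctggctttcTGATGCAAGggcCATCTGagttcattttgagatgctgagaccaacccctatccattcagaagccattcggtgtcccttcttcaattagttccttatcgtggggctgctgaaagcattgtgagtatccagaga
A230028O05Rik: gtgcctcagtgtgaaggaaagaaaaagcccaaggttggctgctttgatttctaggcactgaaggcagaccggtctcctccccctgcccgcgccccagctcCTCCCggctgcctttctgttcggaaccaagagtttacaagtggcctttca
Gm15179: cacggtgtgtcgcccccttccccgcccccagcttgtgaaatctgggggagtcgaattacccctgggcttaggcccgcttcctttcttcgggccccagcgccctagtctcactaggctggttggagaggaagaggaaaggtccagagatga

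The promoter table held 539 of the 852 member names measured on all 8 Derlin-1 arrays without 4PBA, 14 of the 22 called higher, 10 of the 16 called lower and 12 of the 15 snoRNA hosts. Windows of 300 bases (250 before and 50 after the start) were searched on both strands. In C530044C16Rik the capitals mark TGATGCAAG, a match to the ATF4 and CHOP composite core TGATGNAAN, and CATCTG, the reverse complement of the neurogenic E-box CAGATG. The composite core was found in 4.04% of all 27025 promoters, in 1 of the 14 called higher, and in 0 of the 10 called lower and 0 of the 12 snoRNA hosts. The E-box was found in 17.2% of all promoters, in 3 of the 14 called higher, 3 of the 10 called lower and 0 of the 12 hosts. The unfolded protein response element TGACGTGG (0.607% of all promoters) and the ER stress element ERSE (0.130%) matched none of these 14 and 10 called members. The interferon-stimulated response core (3.49% of all promoters) matched 1 of the 14, and the sterol element CACNCCAC (6.12%) matched 0 of the 14 and 1 of the 12 hosts. A pyrimidine run, a C followed by at least 4 C or T within 5 bases of the start, lay in 18.5% of all promoters, in 108 of the 539 measured members in 3 of the 14 called higher, in 1 of the 10 called lower and in 7 of the 12 hosts (58.3%). Of those 7 hosts (Snhg3, Snhg7, Snhg8, Snhg9, Snhg10, Snhg12 and Snhg18) 1 was called, Snhg12. Of the 4 hosts printed it lies in Snhg12 (CTTTCTC), and 2410006H16Rik (CTTTCTCT) and A230028O05Rik (CTCCC) also hold one. Host promoters held a median of 26.5 CpG pairs against 7.0 over all promoters. A match is a description of letters, and no match says only that these letters are not in this window.

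RefSeq classes 902 members (75.5%) as lncRNA, 165 (13.8%) as transcribed pseudogenes, 41 as noncoding transcripts of protein-coding genes, 11 as snoRNA and 7 as snRNA. Of the members, 725 were well above background on all 24 arrays and 80 in exactly 1 group, and 872 to 1163 probes with NR_ names were well above background on an array. The 80 members just inside the rule had mean levels between -7.04 and -5.09 (median -5.77). The 543 NR_ probes just outside it, well above background on at least 1 array but on both arrays of no group, lay between -7.40 and -5.16 (median -6.86). The members varied more between replicates than the arrays at large, with a median within-group SD of 0.29 against 0.20 over all 38115 probes (log2). Their median standard error (SE) of a Derlin-1 fold change was accordingly 0.20 against 0.14. A probe for a pseudogene or for a noncoding transcript of a coding gene may also bind a related transcript, which was not tested.

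Of 16 probes of snoRNA host transcripts, 5 were called higher and none lower in Derlin-1 KO than in controls without 4PBA, 9330179D12Rik rose most among the measured members, and A230028O05Rik, Airn and Adarb2 were among those that fell. Of 1195 members, 50 were called at limma's adjusted p under 0.05 (4.18%), 28 higher and 22 lower, where 4.94% of all probes tested were called (2.4% higher and 2.53% lower), so the share was near the background. Of the 50, 40 were well above background on all 8 arrays (23 higher and 17 lower, of 925 members so measured). A fitted change of at least 2-fold was reached by 12 of the 50. Some of these 12, such as Slfn10-ps and Rbm3os, were not well above background on every array, and their fitted value is no bound. The median log2 fold change over all members was 0.01, as over all probes. By class, 36 of the 902 lncRNA members were called (19 higher, 17 lower) and 9 of the 165 pseudogene members (5 higher, 4 lower), while 0 of 11 snoRNA and 0 of 7 snRNA members were. An unadjusted p under 0.05 was reached by 218 members. In bulk tissue, fewer cells of a type and less RNA per cell cannot be told apart.

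The count of 50 depended on single arrays. It was 14 without lettered KO untreated a, 19 without numbered KO vehicle 2, 22 without lettered control untreated a, 26 and 30 without numbered control vehicle 2 and 1, 30 without numbered KO vehicle 1, and 87 without lettered KO untreated b. Within a slide, 1 member was called in the numbered series alone and 5 in the lettered series alone (9 and 250 of all probes). The 40 called and measured members all had both KO arrays beyond both controls within each slide, and 23 of them had all 4 KO arrays beyond all 4 controls. Both counts describe calls already made, and the same separation was not counted over all probes. Across the 925 measured members the fold changes of the slides correlated with r = 0.45, against 0.48 across 32261 measured probes. These r values are across probes, which share arrays and are not independent.

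**Figure D1:**
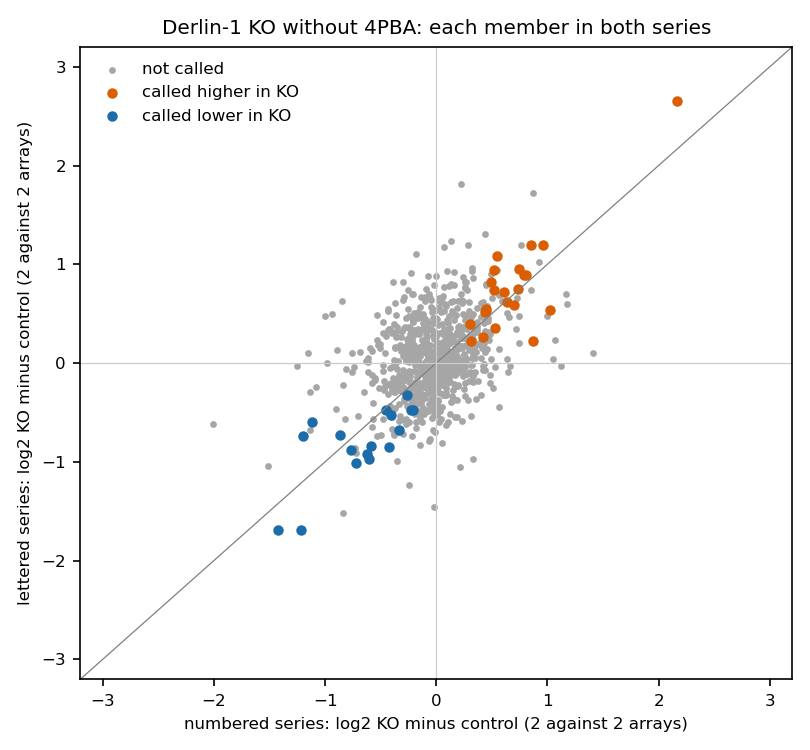
Log2 fold change of Derlin-1 KO against control without 4PBA in the numbered series (x axis) and the lettered series (y axis) for the 925 members measured on all 8 arrays, 1 point per probe; the diagonal marks equal change. The 23 called higher (orange) and 17 called lower (blue) lie in the quadrants where both series move the same way, with 9330179D12Rik farthest out at 2.17 and 2.66.

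Of the lists of noncoding RNAs, the snoRNA hosts held the most calls. Of 23 names listed, 15 were found on the array through their gene symbol and all were members, with 16 probes. Members without a symbol could not be matched to this or the other lists, so a name not found may still be on the array. In Derlin-1 KO without 4PBA, 13 of the 16 probes had a fold change above 0, 5 were called higher (Snhg1, Snhg5, Snhg12, Snhg16 and Epb41l4aos, against 2.4% of all probes called higher) and 0 lower, and the median log2 fold change was 0.39 against 0.01 over all probes. The list was drawn up with earlier results of these data known, so it is no independent evidence of the direction.

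Snhg1 (NR_002896) hosts snoRNAs of the box C/D class, and its spliced RNA is a classic target of nonsense-mediated decay. In the numbered series its levels were -1.02 and -0.82 on control arrays and -0.19 and -0.04 on KO arrays, and in the lettered series -0.67 and -0.72 on control arrays and 0.41 and -0.01 on KO arrays. No KO array overlapped the controls on its slide, and the log2 fold change was 0.85 (SE 0.15, 1.80-fold, limma adjusted p 0.00985). Snhg5 (NR_040721), another box C/D host, had levels of 1.07 and 1.14 on numbered controls and 1.88 and 1.91 on numbered KO arrays, and of 0.75 and 1.13 on lettered controls and 2.06 and 1.60 on lettered KO arrays. All 4 KO arrays lay above all 4 controls, and the log2 fold change was 0.84 (SE 0.14, limma adjusted p 0.0072).

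Snhg12 (NR_029468) had levels of 2.16 and 1.91 on numbered controls against 2.62 and 2.94 on KO arrays, and of 1.37 and 1.19 against 2.40 and 2.06 in the lettered series. Within each slide the groups did not overlap, and the log2 fold change was 0.85 (SE 0.17, limma adjusted p 0.0138). Snhg16 (NR_027821) had 1.37 and 1.34 on numbered controls against 1.87 and 2.07 on KO arrays, and 1.23 and 1.09 against 2.16 and 1.61 in the lettered series (log2 fold change 0.67, SE 0.15, limma adjusted p 0.0248). Its 4 KO arrays lay above all 4 controls. Epb41l4aos (NR_038152), which lies next to Epb41l4a and was on the list as a host, rose by 0.66 (SE 0.13, limma adjusted p 0.0158), from 1.84 and 1.87 to 2.21 and 2.49 on the numbered slide and from 0.88 and 0.92 to 1.98 and 1.46 on the lettered slide. Leaving out each of the 8 arrays in turn, Snhg5 kept its call all 8 times, Snhg1 7 times, Snhg12 and Epb41l4aos 5 times each and Snhg16 1 time, with no change of sign.

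The other hosts did not pass the test. Snhg8 (0.41, limma adjusted p 0.0639) and both Snhg15 probes (0.54 and 0.38, adjusted p 0.0898 and 0.202) were nearest to it, Snhg6 was at 0.27, Snhg10 at 0.19, Snhg18 at 0.13 and Snhg7 at 0.00. Snhg20 (-0.02), Snhg9 (-0.08) and Snhg3 (-0.12) were at or below 0, and Snhg4 (0.67, adjusted p 0.581) was not well above background on every array. A rise of a host transcript gives no measure of its snoRNAs. The protein side of the pathway was also read: of 8 genes for the core proteins of snoRNA particles 0 were called (median -0.07, range -0.22 to 0.07), and of 10 nonsense-mediated decay factors 0 were called (median 0.05, range -0.21 to 0.21), while 10 of 10 ER stress marker genes were called higher (median 1.96), Ddit3 and Trib3 among them.

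**Figure D2:**
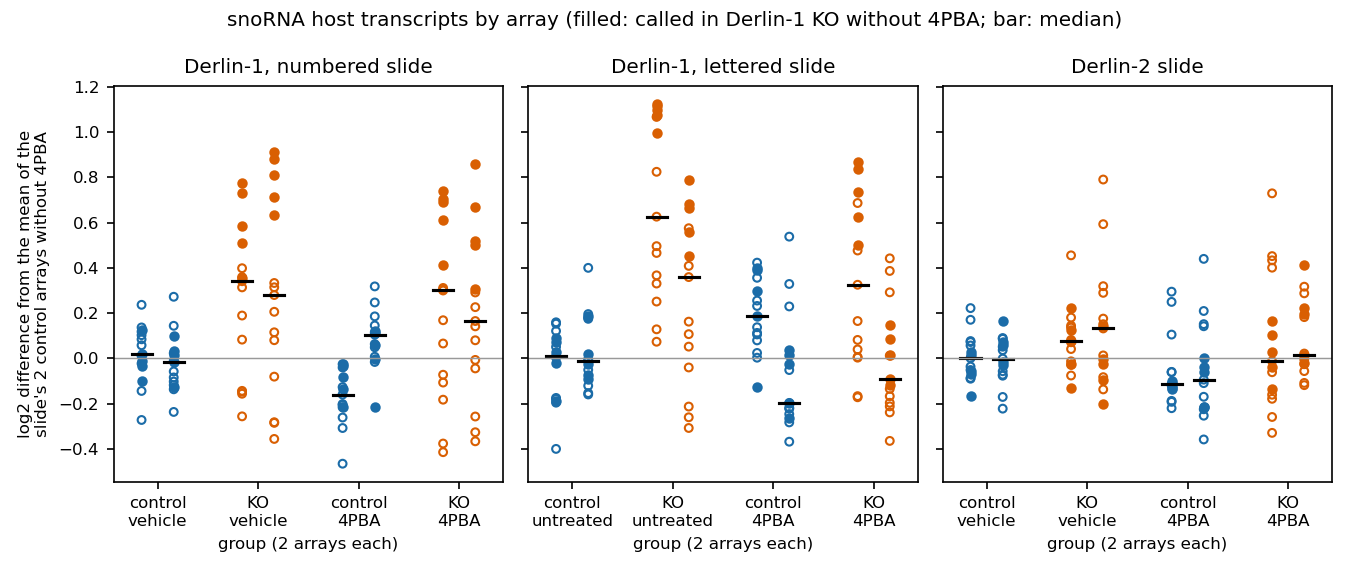
Log2 difference of each snoRNA host probe from the mean of its slide's 2 control arrays without 4PBA (y axis), in columns of 1 array with 2 arrays per group (x axis), on the numbered Derlin-1, lettered Derlin-1 and Derlin-2 slides. Filled points are the 5 probes called in Derlin-1 KO without 4PBA, blue is control, orange is KO and bars are medians of the points of an array; the filled points stand above the controls on all Derlin-1 KO arrays except the array labelled KO 4PBA b, and scatter around 0 on the Derlin-2 slide.

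The member that rose most was 9330179D12Rik (NR_040273), an lncRNA that overlaps the cyclin D2 gene Ccnd2 in the gene table. Its levels on the numbered slide were -2.97 and -2.79 on controls and -0.63 and -0.81 on KO arrays, and on the lettered slide -2.69 and -2.88 on controls and 0.22 and -0.48 on KO arrays. The groups stood far apart on both slides, with a log2 fold change of 2.41 (SE 0.39, 5.32-fold, limma adjusted p 0.00617). A second probe of the transcript was not well above background on any control array and was at least 3.37-fold higher in lettered KO arrays, and at least 1.02-fold higher in numbered KO arrays, 1 of which was well above background. Ccnd2 itself, which drives entry into the cell cycle, was called higher too, at 1.11 (SE 0.26, limma adjusted p 0.0264).

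Trmt61b (NR_015549, a noncoding transcript listed under the gene of a mitochondrial tRNA methyltransferase) rose by 1.07 (SE 0.21, limma adjusted p 0.0141), from -3.72 and -3.46 to -2.56 and -2.70 on the numbered slide and from -4.05 and -3.10 to -2.41 and -2.35 on the lettered slide. The other Trmt61b probes were not called, and the lowest of the 3 was at 0.34. 2410006H16Rik (NR_030738) rose by 1.03 (SE 0.22, limma adjusted p 0.0202), from 1.67 and 1.75 to 2.46 and 2.68 and, on the lettered slide, from 1.94 and 1.47 to 3.2 and 2.60. All 4 KO arrays of both transcripts lay above all 4 controls. NR_002840 was read by a pair of probes at 0.81 and 0.73 (limma adjusted p 0.00576 and 0.00815). It has no symbol in the gene table, so it was not matched to any list.

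C530044C16Rik (NR_045984), whose promoter holds the composite core printed above, had levels of -3.47 and -3.24 on numbered controls, -2.31 and -2.35 on numbered KO arrays, -2.44 and -2.68 on lettered controls and -1.76 and -2.28 on lettered KO arrays. The slides differ in its level, the groups do not overlap within a slide, and the log2 fold change was 0.78 (SE 0.20, limma adjusted p 0.0378). It kept its call in 1 of 8 fits that left out an array. The pseudogene transcripts Gm8096 (0.75, SE 0.15, limma adjusted p 0.0166) and Gm6756 (0.64, SE 0.16, adjusted p 0.0359) completed the 12 named rises. The 11 further rises measured on all arrays ranged from 0.27 to 0.73 and include H2-K2 (0.44, adjusted p 0.045), a pseudogene of the class I histocompatibility family.

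The largest falls among members measured on all 8 arrays were in A230028O05Rik (NR_040374) and 4930447F24Rik (NR_126077), both lncRNAs. A230028O05Rik had levels of 0.39 and 0.49 on numbered controls and -0.96 and -1.0 on KO arrays, and of -2.93 and -3.42 on lettered controls and -4.88 and -4.85 on KO arrays. The lettered slide read it lower throughout, and within both slides the KO arrays lay below the controls (-1.56, SE 0.26, limma adjusted p 0.00784). 4930447F24Rik, which overlaps the presynaptic scaffold gene Bsn, had -2.70 and -2.70 on numbered controls against -4.05 and -3.78 on KO arrays, and -2.34 and -2.61 on lettered controls against -4.28 and -4.06 on KO arrays. Its 4 KO arrays lay below all 4 controls (-1.45, SE 0.27, limma adjusted p 0.0107), while Bsn was at -0.11 (adjusted p 0.755).

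Gm15179 (NR_037976) had -3.03 and -2.71 on numbered controls against -4.03 and -4.11 on KO arrays, and -3.18 and -2.94 against -3.53 and -4.07 in the lettered series. The groups did not overlap (-0.97, SE 0.18, limma adjusted p 0.0108). Adarb2 (NR_110345), a noncoding transcript of the gene for a brain RNA-binding protein of the ADAR family, had 0.36 and 0.46 on numbered controls against -0.59 and -0.30 on KO arrays, and 0.05 and 0.09 against -0.54 and -0.78 in the lettered series. It fell by 0.80 (SE 0.12, limma adjusted p 0.00545), with all KO arrays below all controls, and whether the probe also reads the coding transcript was not tested.

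Airn (NR_027773), the imprinted antisense transcript through which the paternal Igf2r allele is silenced in many tissues, had -1.55 and -1.23 on numbered controls against -2.64 and -2.39 on KO arrays, and -1.21 and -1.33 against -1.72 and -2.03 on the lettered slide. All 4 KO arrays were below all 4 controls (-0.86, SE 0.14, limma adjusted p 0.00718), while its other probe was at -0.49 (adjusted p 0.457) and Igf2r was at -0.13 (adjusted p 0.422). Pax6os1, antisense to the granule neuron regulator Pax6, had -0.99 and -0.85 on numbered controls against -1.70 and -1.39 on KO arrays, and -1.34 and -1.52 against -2.07 and -2.65 on the lettered slide. The groups separated within each slide (-0.77, SE 0.19, limma adjusted p 0.0305), and Pax6 was at -0.03 (adjusted p 0.892). Both measured transcripts of Gm14204, which overlaps the vesicular GABA transporter gene Slc32a1, were called lower (-0.79 and -0.51, limma adjusted p 0.00666 and 0.0274), and Slc32a1 was at -0.35 (adjusted p 0.0713).

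The remaining named falls were 4930449E01Rik (-0.86), the pseudogene transcript Sprr2g (-0.82), 1700057H15Rik (-0.71), 1500012K07Rik (-0.64) and AI504432 (-0.47), with limma adjusted p between 0.0138 and 0.0484. Of the 24 named members, 9330179D12Rik, Snhg5, NR_002840, A230028O05Rik, Gm15179, Airn and Adarb2 kept their calls in all 8 fits that left out an array. Sprr2g kept it in none. Over the 24 members and 8 fits, 110 of 192 calls were kept, 82 were lost and none changed sign.

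**Figure D3:**
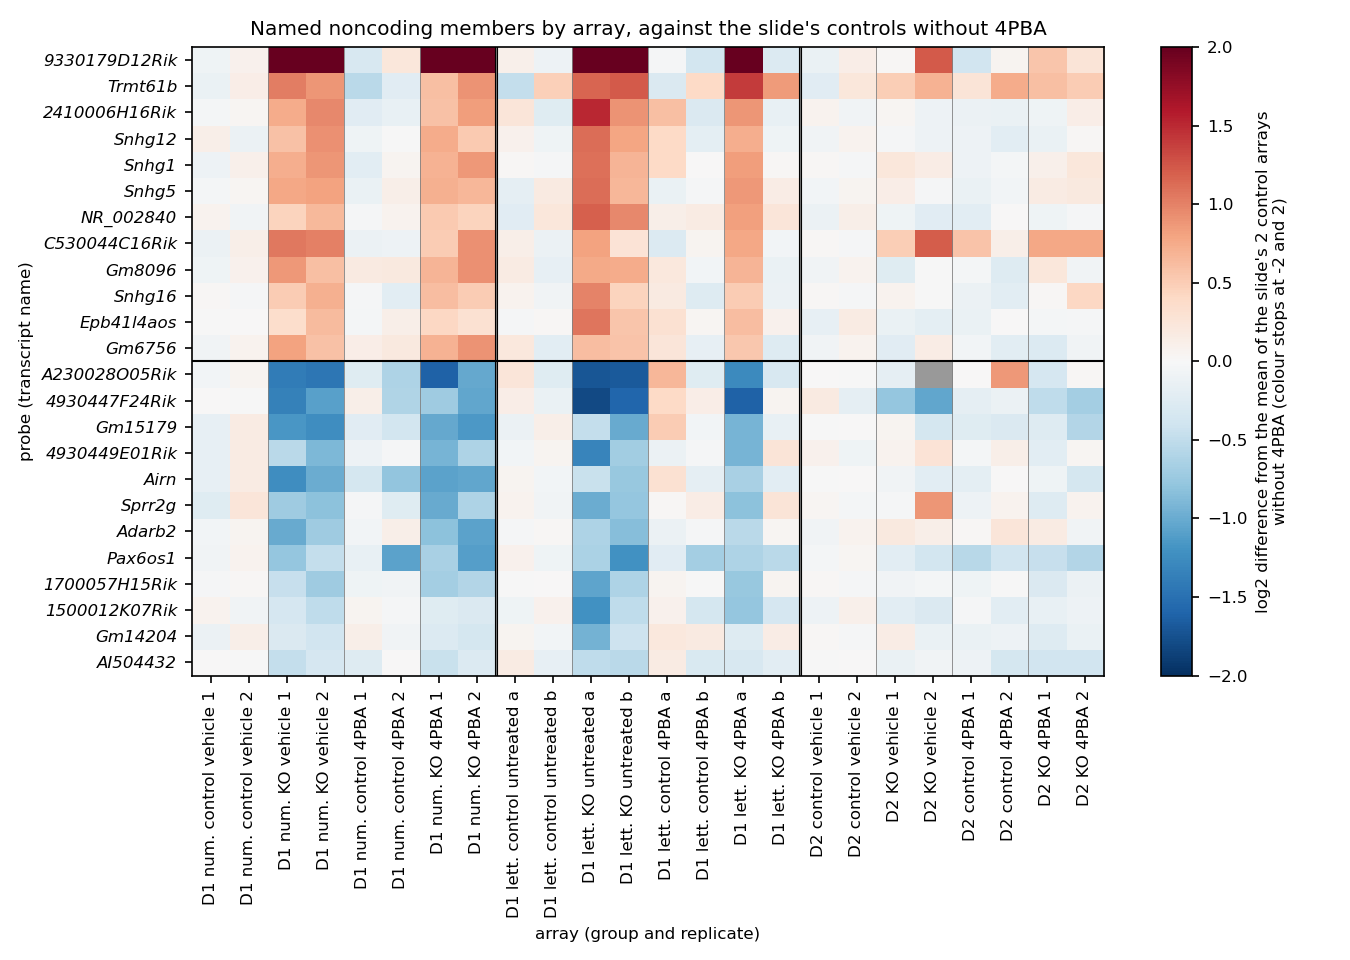
Colour gives the log2 difference of 24 named members (y axis, 12 higher above the line, 12 lower below it) from the mean of the slide's 2 control arrays without 4PBA, for each of the 24 arrays (x axis; grey is a missing value; colour stops at -2 and 2). The Derlin-1 KO columns are mostly red above and blue below the line with and without 4PBA, the column of the array labelled lettered KO 4PBA b is paler (Trmt61b stands at 0.85 and Pax6os1 at -0.54 there), and the Derlin-2 KO columns are mostly pale.

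The other 10 of the 50 calls were not well above background on every array. 2700070H01Rik (NR_046019) had -3.34 and -3.42 on numbered controls and was not well above background on numbered KO arrays (-5.26 and -5.20), at least 3.60-fold lower. On the lettered slide it had -3.06 and -3.36 on controls against -5.82 and -4.87 on KO arrays, of which 1 was well above background, and it was called over both slides (limma adjusted p 0.00401). F930017D23Rik was at least 2.95-fold higher and the schlafen family pseudogene Slfn10-ps at least 1.68-fold higher in numbered KO arrays, and neither was well above background in either lettered group, so their calls rest on 1 slide. Slfn8, the coding gene next to Slfn10-ps, was called higher (1.63, SE 0.42, limma adjusted p 0.0406). Gm12718, D5Ertd605e and Rbm3os were at least 2.19-fold, 1.59-fold and 1.56-fold lower in numbered KO arrays. For Gm12718, 1 of the 2 numbered control arrays was well above background.

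The other lists of known noncoding RNAs held 2 calls in Derlin-1 KO without 4PBA, Airn and Snhg12. Of 19 probes of 11 imprinted transcripts, 1 was called lower (Airn) and the median was 0.06. H19, a growth-linked imprinted RNA, was at -0.56 (limma adjusted p 0.106), Rian at -0.34, 4 probes of Meg3 between 0.17 and 0.54 and 5 probes of Kcnq1ot1 between 0.06 and 0.44. On the Derlin-2 slide the imprinted list had medians of 0.31 in KO with vehicle (14 of 19 probes above 0), 0.44 for 4PBA in controls (13 of 19) and 0.36 for 4PBA in KO (15 of 19), against 0.00, -0.05 and -0.05 over all probes. Without the array labelled KO vehicle 1 the first was 0.41 and the last 0.15. The first comparison shares arrays with each of the others, and several probes share a transcript. In these 3 comparisons limma called 0 of the 19 probes (smallest adjusted p 0.116), and 3, 2 and 1 had an unadjusted p under 0.05. Of 21 probes of 13 nuclear and X-inactivation RNAs 0 were called (median 0.12). Rmrp, the RNA of the MRP ribonuclease, was nearest at -0.45 (limma adjusted p 0.0735). Neat1, the scaffold of paraspeckles, was at 0.42 and 0.91 (adjusted p 0.456 and 0.331), the Neat1 probe at 0.91 was not well above background on every array, and of 8 paraspeckle protein genes 0 were called (median -0.04).

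Of 11 probes of 10 microRNA host transcripts 0 were called (median -0.05), with Mir124-2hg, a host of the neuronal microRNA miR-124, at -0.28 (limma adjusted p 0.068). Of 15 probes of 13 neural and developmental RNAs 0 were called (median -0.06). Among them Miat was at 0.98 (adjusted p 0.133), Pvt1 at 0.48 and 0.24 (adjusted p 0.0948 and 0.428) and Paupar at -0.55 (adjusted p 0.111). Of 16 probes of 9 stress-linked RNAs 1 was called, Snhg12, which the host list also holds. The median of the list was 0.38 with 14 of 16 probes above 0, close to the 0.39 and 13 of 16 of the snoRNA hosts (0.38 in each over its 15 measured probes), and both lists hold the Snhg15 probes and Snhg12. Of 6 immune-linked RNAs 0 were called (median 0.14), and BC018473 had the largest value at 2.02 (adjusted p 0.131) without being well above background on every array.

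Members with the most similar profiles over the 24 arrays were named by Pearson r among 1106 members, as a description, since the arrays share groups and slides. Snhg1 and 2410006H16Rik had r = 0.94, Snhg12 and Snhg8 0.94, Epb41l4aos and NR_002840 0.97, and 9330179D12Rik with Gm6756 0.92 and with Snhg1 0.91. Among the falls, Gm15179 and 2700070H01Rik had r = 0.88. With each slide centred on its own mean, Snhg1 and 2410006H16Rik had 0.95, and Epb41l4aos and NR_002840 0.94. Of 55 names with several measured probes, 36 had all probes on the same side of 0, 1 had all of them called (Gm14204) and 4 had some called.

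Neighbouring coding genes were read for 33 called names, and 3 of these neighbours were called (9.09%), all in the member's direction. For 659 names not called it was 40 (6.07%), of which 18 had the member's direction. The 3 are Ccnd2, Slc3a2 next to Snhg1 (0.54, SE 0.13, limma adjusted p 0.0335), the heavy chain of amino acid transporters, and Rgma overlapping A730056A06Rik (0.38, SE 0.10, adjusted p 0.05), a repulsive guidance molecule. Among called members not measured on every array, Slfn8 had the direction of Slfn10-ps. Rai14, which overlaps Gm10389, went the other way: it was called higher (0.37, SE 0.08, limma adjusted p 0.0203), while Gm10389 was called lower (fitted -1.30).

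Levels of some marker lists moved with these changes. The mean level of 10 microglia markers was 0.27 to 0.67 on Derlin-1 controls without 4PBA and 1.42 to 1.79 on KO arrays, and 8 of the 10 were called higher. That of 9 granule neuron markers was 4.59 to 4.94 on controls and 4.27 to 4.64 on KO arrays, with 2 called lower. Of 8 astrocyte and Bergmann glia markers 1 was called higher, with means of 4.34 to 4.41 on numbered controls and 4.57 to 4.63 on numbered KO arrays, and of 4.15 to 4.34 and 4.23 to 4.32 on the lettered slide. The Purkinje cell (10 markers) and oligodendrocyte (10 markers) lists had 0 called. The mean of 5 choroid plexus markers stood far apart within groups, at -0.15 and 3.58 on numbered KO arrays and -1.76 and 2.59 on lettered KO arrays, against 1.87 and 2.65 and -0.62 and 2.81 on the controls, with 0 called. On the Derlin-2 slide it was 2.47 to 2.88 on vehicle controls and 2.57 to 3.47 on vehicle KO arrays, and 0.84 to 1.96 on 4PBA controls and 2.97 to 3.36 on 4PBA KO arrays, so that the 4PBA groups did not overlap. That of 2 erythroid markers there was 4.94 to 5.24 on 4PBA controls and 3.94 to 4.35 on 4PBA KO arrays. The microglia mean was 0.12 to 0.37 over the 8 arrays of that slide. The part of these shifts in the calls of noncoding members was not tested.

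With 4PBA, the members called in Derlin-1 KO without it had the same direction. All 40 of the called and measured members kept their direction on this separate set of 8 arrays, with a median of 0.36 in that direction (range 0.03 to 1.70) against 0.69 (0.27 to 2.41) without 4PBA, the comparison that chose them, so the medians are not a test of a difference. The test of whether the knockout effect differed with 4PBA called 0 of the 40 with limma, and 5 had an unadjusted p under 0.05, or 1 without the array labelled lettered KO 4PBA b. The same holds for 99.1% of the 1697 probes of any kind called and measured without 4PBA (median 0.31), and 71.6% of the 925 measured members kept their direction, called or not. Of the 40 members, 0 were called by limma with 4PBA and 32 had an unadjusted p under 0.05. Without the array labelled lettered Derlin-1 KO 4PBA b, which leaves 1 array in that group, all 40 had the same direction and the median was 0.53. Of the 1697 probes of any kind, 99.2% then had the same direction, with a median of 0.42.

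9330179D12Rik had levels of -3.2 and -2.65 on numbered 4PBA controls, -0.86 and -0.29 on numbered 4PBA KO arrays, -2.80 and -3.15 on lettered 4PBA controls, and -0.79 and -3.05 on lettered 4PBA KO arrays a and b. Array b thus stood with the controls, and the log2 fold change was 1.70 (SE 0.39, limma adjusted p 0.171) with it and 2.27 (adjusted p 0.0009) without it. Snhg5 had 0.97 and 1.22 on numbered 4PBA controls, 1.81 and 1.77 on KO arrays, 0.81 and 0.92 on lettered 4PBA controls, and 1.81 and 1.09 on KO arrays a and b (0.64, adjusted p 0.16, and 0.82, adjusted p 0.0027, without b). Snhg1 had -1.14 and -0.86, then -0.23 and -0.06, on the numbered slide and -0.30 and -0.68, then 0.15 and -0.67, on the lettered slide (0.54, adjusted p 0.266, and 0.74, adjusted p 0.006, without b). On the numbered slide the KO arrays of all 3 lay above the controls.

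Adarb2 had 0.36 and 0.53 on numbered 4PBA controls, -0.41 and -0.66 on KO arrays, -0.05 and 0.04 on lettered 4PBA controls, and -0.48 and 0.10 on KO arrays a and b. Array b again lay with the controls, and the other 3 KO arrays lay below them. The microglia marker mean was 0.32 on array b and 1.27 to 1.55 on the other 3 KO arrays, and its part in these values was not tested. The median of the snoRNA hosts with 4PBA was 0.18, with 0 of 16 probes called by limma and 4 at an unadjusted p under 0.05. Without array b it was 0.25, with 4 called.

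Over all members, 2 were called in Derlin-1 KO with 4PBA (0.0604% of all probes were called), and 31 without array b (18 higher, 13 lower, against 2.70% of all probes), of which 19 were among the 50 called without 4PBA. Leaving out any of the other 7 arrays gave 1 to 5. The 2 are 1700065J11Rik and 4930452A19Rik, and both calls come from the lettered slide. 1700065J11Rik was at -3.42 and -3.41 on the arrays labelled lettered KO 4PBA a and b and not well above background on the lettered 4PBA controls, at least 3.51-fold higher, while neither numbered group was well above background (limma adjusted p 0.0431 over both slides, with the call kept in 4 of 8 fits that left out an array). Array b, with stress markers at control level, read like array a here, and without b the adjusted p was 0.013. 4930452A19Rik was at -3.47 and -3.87 on the lettered 4PBA controls and not well above background on the lettered KO 4PBA arrays, at least 3.26-fold lower (limma adjusted p 0.00211 over both slides, and 0.00081 without b), and neither numbered group was well above background. Each of the pair is a member only through the group where it is high, so its call restates that choice. Background correction by normexp on median signals, described below, ended both calls.

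Few members were called with 4PBA against none in the Derlin-1 line. The number of NR_ probes well above background on both arrays of a group was 1007 and 1030 in numbered vehicle controls and KO against 908 and 883 with 4PBA, and 1014 and 1070 against 978 and 1022 in the lettered series. Of spots of any kind, 63.6% to 65.2% were well above background on numbered vehicle arrays and 60.3% to 63.8% on numbered 4PBA arrays. In the lettered series these shares were 63.5% to 68.4% and 61.5% to 66.8%. The part of detection in the calls was not tested. In controls 1 was called (0.0341% of all probes), 4930452A19Rik, at least 3.61-fold higher on the lettered slide (limma adjusted p 0.0171 over both slides). In KO 1 was called (0.0525% of all probes), 1700065J11Rik, at least 4.79-fold higher on the lettered slide (limma adjusted p 0.000504, and 0.0035 without b). Each was well above background on 2 arrays of 1 slide alone, the group that made it a member, and neither was on the numbered slide. The normexp correction ended these calls too. The count in controls was 0 without lettered control untreated a or b, 2 without numbered control vehicle 1 or 2 or numbered control 4PBA 1, and 3 without numbered control 4PBA 2. In KO it was 5 and 2 without numbered KO vehicle 1 and 2, 3 without numbered KO 4PBA 1, numbered KO 4PBA 2 or lettered KO 4PBA a, and 6 without lettered KO untreated b. The test of whether the 4PBA effect differed between Derlin-1 KO and controls called 0 members with limma (0.0315% of all probes), and 41 had an unadjusted p under 0.05. Over the 16 fits that left out an array it called 0 to 3, with 3 without numbered KO vehicle 1 and 2 without numbered control vehicle 2.

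**Figure D4:**
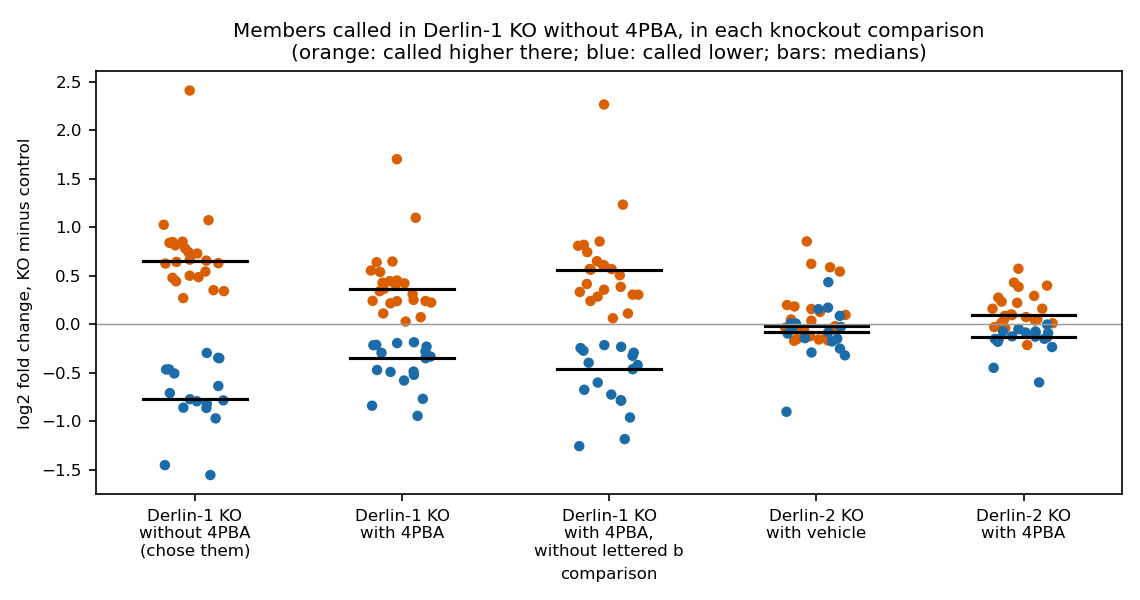
Log2 fold change of KO against control (y axis) for the 40 members called and measured in Derlin-1 KO without 4PBA, in each knockout comparison (x axis); orange was called higher and blue lower there, bars are medians, and the first column chose the members. The points keep their sides with 4PBA, spread further without the array labelled lettered KO 4PBA b, and mix around 0 in Derlin-2 KO with vehicle.

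In Derlin-2 KO, none of the 40 members was called. With vehicle, 22 of the 40 had the same direction as in Derlin-1 KO, with a median of 0.04 in that direction (range -0.43 to 0.90), and 0 were called by limma and 3 had an unadjusted p under 0.05. These 3 had the direction they have in Derlin-1 KO. C530044C16Rik was at 0.85 (limma adjusted p 0.54), and 1.21 without the array labelled KO vehicle 1, with levels of -3.68 and -3.74 on vehicle controls and -3.21 and -2.50 on vehicle KO arrays. Gm38426 was at 0.54 (adjusted p 0.5) and 0.56, and 4930447F24Rik at -0.90 (adjusted p 0.687) and -1.03. Their differences between the Derlin-1 and Derlin-2 effects were -0.07 (SE 0.34), 0.09 (SE 0.21) and -0.55 (SE 0.47). Of all 1697 probes so called and measured, 59.6% had the same direction, and of the 925 measured members 55.9%, so 22 of 40 is near the background. Without the array labelled Derlin-2 KO vehicle 1, it was 22 of 39 with a value, median 0.05. With 4PBA, 36 of the 40 had the same direction, with a median of 0.11, and 0 were called and 1 had an unadjusted p under 0.05. The share was 76.5% over all called and measured probes and 60.0% over the measured members. The difference between the Derlin-1 and Derlin-2 effects was called for 0 of the 40 by limma, and 27 had an unadjusted p under 0.05, or 21 without the array labelled Derlin-2 KO vehicle 1, so a difference of these members between the lines was not shown. For 9330179D12Rik the levels on the Derlin-2 slide were -3.55 and -3.30 on vehicle controls, -3.40 and -2.20 on vehicle KO arrays, -3.81 and -3.36 on 4PBA controls and -2.86 and -3.16 on 4PBA KO arrays. KO array 2 stood above the others, and the difference between the lines was 1.79 (limma adjusted p 0.36). Without KO vehicle 1 the Derlin-2 effect went from 0.62 to 1.23 and the difference to 1.19 (adjusted p 0.634). For Adarb2 the 8 arrays of that slide lay between 0.17 and 0.47 (difference between the lines -0.95, adjusted p 0.17, and -0.91, adjusted p 0.175, without KO vehicle 1). The snoRNA hosts had medians of 0.07 with vehicle, 0.14 without KO vehicle 1, and 0.10 with 4PBA, with 0 of 16 called by limma in each and 1, 1 and 0 at an unadjusted p under 0.05.

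In Derlin-2 KO with vehicle 1 member was called (0.121% of all probes), Gm8013 (NR_131152). Its levels were -0.64 and -0.90 on vehicle controls, -3.83 and -4.20 on the arrays labelled vehicle KO 1 and 2, -4.36 and -4.29 on 4PBA controls and -4.70 and -4.75 on 4PBA KO arrays. The 2 vehicle control arrays were thus high and all others of the slide low, as were the 15 Derlin-1 arrays with a value, from -4.64 to -3.32. It fell by 3.25 in vehicle KO (SE 0.32, limma adjusted p 0.000773; -3.43, adjusted p 0.00395, without KO vehicle 1) and by 3.56 with 4PBA in controls (adjusted p 0.000469). Leaving out each array of the vehicle comparison kept the call all 4 times. Both comparisons share the 2 vehicle controls. More members, and more probes of any kind, were called without the array labelled Derlin-2 KO vehicle 1. Each fit that left out an array of this comparison leaves 1 array in a group, and the range of their counts is given at the end.

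With 4PBA, 4 members were called in Derlin-2 KO (0.165% of all probes), 3 higher and 1 lower (0.0998% and 0.0656% of all probes). Gm14164 was at -2.85 and -3.93 on the 4PBA KO arrays and between -7.70 and -6.05 on the other 22 arrays, at least 2.24-fold higher than in 4PBA controls (limma adjusted p 0.00105). Gm10440 was at -3.93 and -3.41 on the same arrays, at least 1.85-fold higher (adjusted p 0.0423), and at -4.28 on numbered Derlin-1 KO 4PBA 1. 4930518P08Rik was at -2.55 on 4PBA KO array 1 and had no value on array 2, at least 4.02-fold higher (adjusted p 5.94e-06), so its error comes from other groups. Terc, the RNA template of telomerase, was at -2.58 on 4PBA control 2, had no value on control 1, and was not well above background on the 4PBA KO arrays (-6.90 and -6.61), at least 4.18-fold lower (adjusted p 0.0283). The control arm of Terc is thus 1 array, and the spread behind its p comes from other groups. On the Derlin-1 slides Terc read -3.03 and -2.03 on numbered KO 4PBA arrays and -4.99 and -4.57 on lettered KO 4PBA arrays. The count was 13 without control 4PBA 2, 7 and 6 without KO 4PBA 1 and 2, and 4 without control 4PBA 1. The call of Gm10440 was lost in each of the 4 fits that left out an array (adjusted p up to 0.152), and that of Gm14164 in none. Gm14164 and Gm10440 are members only through these 2 KO 4PBA arrays, so their calls restate that choice. The choroid plexus and erythroid marker means given above also separated these 4PBA groups. So did the means of oligodendrocytes (3.76 to 3.94 on KO arrays, 4.07 to 4.22 on controls) and Purkinje cells (5.51 to 5.60 and 5.63 to 5.67). Those of astrocytes and Bergmann glia (4.12 to 4.17 and 4.23 to 4.27) and microglia (0.12 to 0.13 and 0.19 to 0.21) were apart too. Granule neuron and endothelium means overlapped. The part of these lists in the calls was not tested.

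Set against vehicle, 2 members were called with 4PBA in Derlin-2 controls (0.178% of all probes) and 3 in Derlin-2 KO (0.144%). On this slide 1012 and 1019 probes with NR_ names were well above background on both arrays of the vehicle control and KO groups, against 816 and 837 with 4PBA. Of spots of any kind, 63.5% to 66.9% were well above background on the vehicle arrays and 57.7% to 62.9% on the 4PBA arrays, so the drop was not particular to NR_ names. The part of this in the calls was not tested. In controls these were Gm8013 and 4930518P08Rik (limma adjusted p 0.0343), at -4.63 and -4.50 on vehicle controls and not well above background on 4PBA controls, which gives no bound on a fold. The latter call was lost in each of 4 fits that left out an array. In KO they were Gm14164, at least 4.38-fold higher, Gm10440, at least 3.62-fold higher, and 4930518P08Rik (2.49 from 3 arrays, adjusted p 8.64e-06). Without KO vehicle 1 the last value was 2.52, from 1 array a group. Each was high in a single group of the slide. The count in controls was 14 without control 4PBA 2, 3 and 4 without control vehicle 1 and 2, and 2 without control 4PBA 1. In KO every fit that left out an array called more members than the full fit. Without the array labelled KO vehicle 1 more probes of any kind were called too. Each of these fits leaves 1 array in a group, and the range of their counts is given at the end.

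The difference of the 4PBA effect between Derlin-2 KO and controls was called for 3 members (0.0893% of all probes), Gm14164, 4930518P08Rik and Gm8013, and the difference of the knockout effects without 4PBA between the lines for 1 (0.0682%), Gm8013. Gm8013 lost the first of these calls in all 8 fits that left out an array and kept the other in 11 of 11. The first count was 6 without control 4PBA 2, 4 without the array labelled KO vehicle 1, KO 4PBA 1 or KO 4PBA 2, and 1 without KO vehicle 2 or control 4PBA 1. The second count rose without the array labelled Derlin-2 KO vehicle 1, as did the count over all probes, in a fit that leaves 1 array in that group. The range of this count is given at the end.

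**Figure D5:**
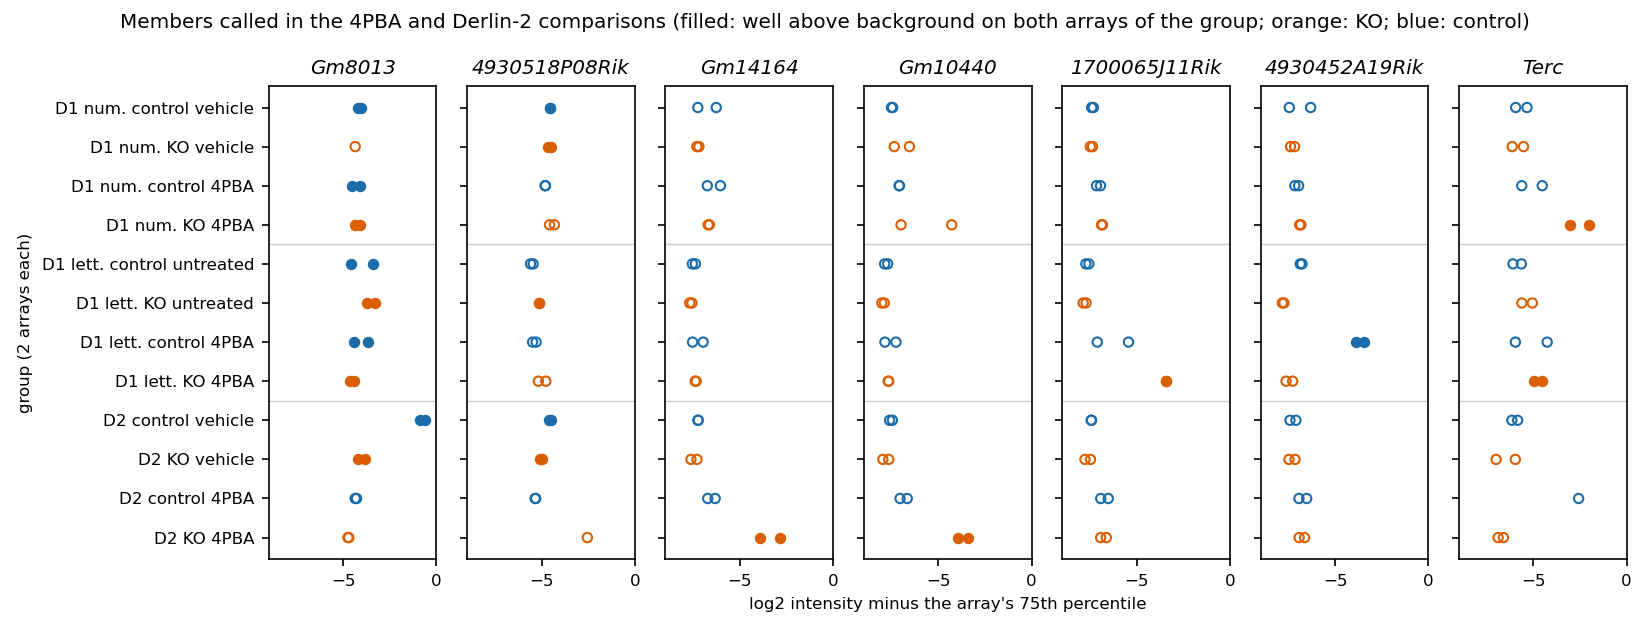
Levels (log2 intensity minus the array's 75th percentile, x axis) of the 7 members called in the 4PBA and Derlin-2 comparisons, for each of the 12 groups (y axis), 1 point per array; orange is KO, blue is control, and filled points are groups well above background on both arrays. Each member stands high in 1 or a few groups, such as Gm8013 at -0.64 and -0.90 in Derlin-2 vehicle controls, and low elsewhere.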

How the data were processed

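Cy3-labelled cerebellar RNA was read on Agilent arrays with Feature Extraction 10.7.1.1, per the submitters' processing notes. The deposited value used was the processed signal, a linear intensity after background correction per the file headers. The authors' series table held the same linear intensity, differing by at most 1.74e-06 (log2) at single-spot probes, and no normalization between arrays is recorded. Control spots were left out (59305 spots remained per array), outlier spots (52 to 637 per array) were set to missing, and spots of a probe were averaged. From log2 intensities the 75th percentile of the array was subtracted (890 to 1169 in intensity).

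Group means of the 24 arrays were fitted in a single linear model (R 4.3.3 with limma 3.58.1; 12 residual and 1.94 prior degrees of freedom). For Derlin-1, the numbered and the lettered contrast counted equally. P-values were two-sided and Benjamini-Hochberg adjusted over all kept probes, with calls at an adjusted value under 0.05; each adjusted p in the text is limma's. The fit was tested on simulated data. Having 2 arrays a group bounds the precision.

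Named were the 12 largest rises and 12 largest falls among members called and well above background on every array compared, or all called members where 5 or fewer were called, with the brightest probe standing for a name and listed noncoding RNAs beside them. Where a group was not well above background, a fold is given only as a bound, and a fitted log2 difference printed for such a group is no bound. The bound was set from the bright group's mean and, on each dim array, from its lowest signal well above background or the probe's own if higher. The members and lists were chosen with earlier results of these data known. Gene symbols and neighbours came from the RefSeq table of GRCm38.p6, through the transcript accession.

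Replicate numbers come from the sample titles. Deviations of same-numbered arrays correlated between -0.30 and 0.76 over group pairs, so the numbers were not taken as pairing. Alternatives were quantile normalization, background correction by normexp, the authors' table, other filters, 1 probe per name, blocks, each series alone and leaving out each array. Normexp on mean signals was planned, but the files hold median signals, which were used. Probe sequences were not used here.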

Additional observations from a re-analysis of the deposited data

Results flagged for a closer look

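The test of a difference between effects was passed by 3 members, each in a comparison that takes in the Derlin-2 slide, but the first below rests on the choice of members and the second on 1 array. For Gm14164 the effect of 4PBA in Derlin-2 KO exceeded that in controls by 3.36 (log2, SE 0.49, limma adjusted p 0.0167). That is a fitted value and no bound, since Gm14164 was well above background on the 2 KO 4PBA arrays alone, which made it a member, and not in the other 3 groups of the slide. For 4930518P08Rik the same difference was 3.25 (SE 0.21, adjusted p 2.91e-05), a fitted value too: the KO 4PBA group is 1 array, whose spread is taken from other groups, and the 4PBA controls were not well above background. For Gm8013 it was 2.85 (SE 0.46, adjusted p 0.0389), and the knockout effect without 4PBA was higher by 3.36 in the Derlin-1 line than in the Derlin-2 line (SE 0.41, adjusted p 0.00764). The first Gm8013 difference lost its call in each of 8 fits that left out an array. Gm8013 was high on the 2 Derlin-2 vehicle control arrays, which enter both of its differences. Without the array labelled Derlin-2 KO vehicle 1 the values were 3.52 for Gm14164, 3.29 for 4930518P08Rik, and 3.03 (adjusted p 0.0612) and 3.55 (adjusted p 0.0105) for Gm8013.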

How the results depend on the processing

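The Derlin-1 KO count without 4PBA (50) fell to 29 with no filter on dim probes, 1 in the numbered series alone and 5 in the lettered series alone, and leaving out arrays gave 14 to 87; the other settings stayed within 1.5 times. Of its 24 named members 23 kept their calls under quantile normalization, 24 under normexp on median signals, 23 with the authors' table, 17 with no filter, 0 in the numbered series alone and 2 in the lettered series alone, and none changed sign. Of 18 named calls in the other comparisons 15 were kept under quantile normalization, 7 under normexp (adjusted p up to 1.0), 12 with the authors' table and 18 with no filter. Quantile normalization gave 1 for Derlin-1 KO with 4PBA, 2 for Derlin-2 KO with vehicle and 2 for 4PBA in Derlin-1 KO. Normexp on median signals, chosen after seeing the data, gave 0 for Derlin-1 KO with 4PBA, 0 for 4PBA in Derlin-1 controls and in KO, and 1 for the difference of the 4PBA effect in the Derlin-2 line. The authors' table gave 1 for Derlin-1 KO with 4PBA, 5 for 4PBA in Derlin-2 controls and 0 for the difference between the lines. No filter gave 13 for 4PBA in Derlin-2 controls and 24 in Derlin-2 KO. Members well above background on all 24 arrays gave 0 in every comparison except Derlin-1 KO without 4PBA, since the members called there are dim on some array. The numbered series alone gave 1 for Derlin-1 KO with 4PBA, 0 and 2 for 4PBA in controls and KO, and 1 for their difference; it reversed 4930452A19Rik, at 0.19 in Derlin-1 KO with 4PBA and -0.17 with 4PBA in controls, fitted values where neither group was well above background. With the replicate block, for numbers that share no stated source, Derlin-1 KO with 4PBA gave 1, 4PBA in Derlin-1 controls 0, 4PBA in Derlin-2 KO 5 and the difference between the lines 2; it ended no call of the 24 named members and 6 of the 18 others (adjusted p up to 0.122). A crossed pairing, added after seeing the data, gave 1, 0 and 2 for Derlin-1 KO with 4PBA, 4PBA in Derlin-1 controls and the difference between the lines, and ended 1 of the 24 and 6 of the 18 calls. Except where a filter is named, the cause was not tested.

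Leaving out arrays gave 1 to 31 for Derlin-1 KO with 4PBA, 1 to 7 for Derlin-2 KO with vehicle, 4 to 13 with 4PBA, 0 to 3 for 4PBA in Derlin-1 controls, 1 to 6 in Derlin-1 KO, 2 to 14 in Derlin-2 controls and 4 to 10 in Derlin-2 KO. It gave 0 to 3 and 1 to 6 for the difference of the 4PBA effect in the Derlin-1 and Derlin-2 lines, and 1 to 7 for the difference between the lines. With 1 array left in a group, that array is assumed to vary like the others. Signal near background limits the rest: 80 members were measurable in 1 group only.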

Other observations

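Some members read lower on the lettered slide than on the others, whatever the genotype. Sprr2g was at 2.10 to 3.16 on the numbered arrays without 4PBA and at -0.11 to 0.94 on the lettered ones. 4930449E01Rik was at 1.83 to 2.89 against -0.13 to 1.23, and A230028O05Rik was at -1.0 to 0.49 against -4.88 to -2.93. The slides differ in scan day and in series, which cannot be told apart.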
